A study of Drosophila melanogaster with 29 samples.

Results

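The genes of the mitochondrial respiratory chain were examined in nuclear RNA from fly photoreceptors. Members were the genes of the deposited table whose symbol began with ND-, UQCR-, COX4, COX5, COX6, COX7, COX8, ATPsyn, Sdh, Cyt-c or mt:. This gave 80 of the 7602 genes in the table, 12 encoded in the mitochondrial genome and 68 in the nucleus. The values come from 3 RNA-seq libraries of 1 group, so the comparisons run between genes and between libraries, and no condition was contrasted with another. All 3 libraries came from male Drosophila melanogaster at day 10 after eclosion, kept at 25 °C in alternating light and dark, with the genotype w;; UAS-GFP-Msp300KASH attP2, rh1-GAL4, ry[506]. In these flies the rhodopsin driver rh1-GAL4, active in outer photoreceptors, expresses green fluorescent protein fused to a nuclear envelope anchor, and the tagged nuclei were isolated from other nuclei before RNA was prepared. The 26 chromatin samples of the series were not analysed here.

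The respiratory chain passes electrons from NADH and succinate to oxygen through complexes I to IV of the inner mitochondrial membrane, with cytochrome c as the carrier between complexes III and IV. The proton gradient built on the way drives ATP synthase, and fly photoreceptors are known for a high demand for ATP. Most subunits are encoded in the nucleus and imported, whereas a few core subunits are encoded by mitochondrial DNA and transcribed inside the organelle, outside the nucleus. Complex II has no mitochondrially encoded subunit.

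Complex I supplied 7 mitochondrial and 33 nuclear members, complex II 5 nuclear members, complex III 1 mitochondrial and 8 nuclear members, and complex IV 3 mitochondrial and 10 nuclear members. ATP synthase supplied 1 mitochondrial and 11 nuclear members, and cytochrome c 1 nuclear member. The name table held 130 symbols that met the rule, of which 50 had no row among the deposited values. These were 22 mitochondrial tRNA genes, 4 other mitochondrial features (mt:ATPase8, the ribosomal RNA genes mt:lrRNA and mt:srRNA, and mt:ori), 21 nuclear genes with a paralog suffix L, and ND-B8, ND-MNLL and Cyt-c-d. The filter that chose the genes of the table is not given in the sources used here, so a missing row sets no limit on a level.

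The libraries held 3781302, 3051440 and 3769863 reads in replicates 1, 2 and 3, and 1 read was worth 1.29, 1.49 and 1.32 normalized counts. A normalized count is the number of reads after the authors' scaling for library depth. No member was at 0 in any library, and the lowest value was 1 read. The sample matched its label at the level of marker genes: the 10 photoreceptor markers had means of 7404 to 71061 normalized counts. By contrast, the 5 glial markers had means of 33.4 to 378.8, the 3 cone and pigment cell markers 6.52 to 189.8, and the 3 muscle markers with a row, of 4 listed, 26.3 to 213.8. The 4 fat body and blood markers had 10.8 (Lsp2) to 1885 (FASN1, fatty acid synthase), and of 6 testis markers only mia had a row, at 7.31. In nuclei pooled in bulk, fewer cells of a type and less RNA per cell cannot be told apart.

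The median of the mitochondrially encoded members lay far above that of the nuclear ones. By complex, the medians were far apart in complexes III and IV and ATP synthase, but not in complex I. Within complex I, mt:ND5, at a mean of 289, still lay above the highest nuclear gene, ND-51, at 274. Mitochondrial RNA is made outside the nucleus, so its level in these nuclear libraries is not its level in the cell. How much was carried along with the nuclei was not tested. The lowest member of all was also mitochondrial, at a mean of 5.82, against 13.5 for the lowest nuclear member. The median of the 12 mitochondrial members was 185, 187 and 276 normalized counts in replicates 1, 2 and 3, against 54.0, 46.3 and 53.5 for the 68 nuclear members. The median log2 level was higher for mitochondrial members by 1.97 ± 0.32 (SD, n = 3 libraries) on the log2(normalized count + 1) scale, and it was higher in 3 of 3 libraries. The exact sign-flip permutation test over libraries gave a two-sided p of 0.25, the smallest that 3 libraries allow, so this design cannot reach 0.05. Divided by the length of the annotated gene span, the difference was 1.68 ± 0.38 on the log2(normalized count per kb + 1) scale (3 of 3 libraries, exact permutation p 0.25).

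Levels were compared between genes per kb of this span. It includes introns, which nuclear RNA can also contain, and mitochondrial genes have none. Whether reads in introns were counted is not given in the sources used here, so levels per kb are uncertain. Per kb, the difference between mitochondrial and nuclear subunits of the same complex was largest in complex IV, at 4.56 ± 0.35 on the log2 scale (SD, n = 3). It was 3.26 ± 0.44 in ATP synthase and 2.36 ± 0.28 in complex III, each higher in 3 of 3 libraries (exact permutation p 0.25 for each). In complex I it was 0.38 ± 0.48, higher in 2 of 3 libraries, with the 7 mitochondrial subunits at a median of 43.7, 34.4 and 68.7 normalized counts before division by length (exact permutation p 0.5). This difference was smaller than its own spread between libraries.

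**Figure D1:**
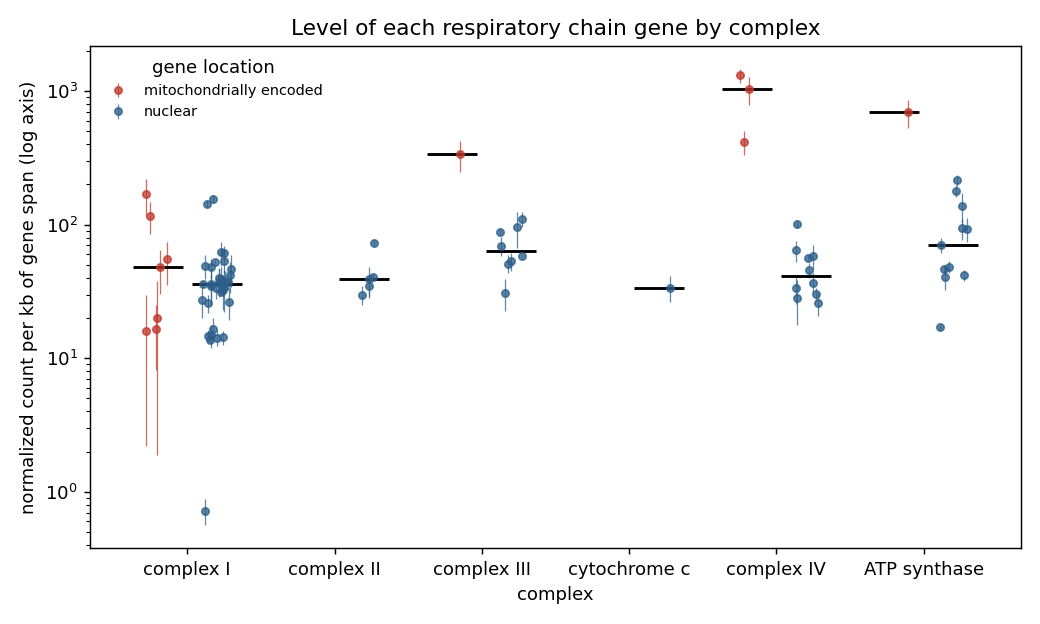
Each point is 1 respiratory chain gene, placed by complex, and the log-scaled vertical axis gives its mean normalized count per kb of gene span over 3 libraries. Error bars are SD over libraries, cut off at the low end where they would reach 0, and black lines mark the median gene of each group. Red mitochondrial genes stand above every blue nuclear gene of their complex in complexes III and IV and ATP synthase, and overlap them in complex I.

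The core subunits of cytochrome c oxidase, complex IV, dominated the mitochondrial RNA. mt:CoI (FBgn0013674; mitochondrial positions 1474 to 3009 of the Release 6 plus ISO1 MT assembly), which encodes the catalytic subunit, had 1790.4, 1997 and 2267 normalized counts in replicates 1, 2 and 3. It was the highest member, at 2018 ± 239 (SD, n = 3), or 44.5% of the summed mitochondrial level. mt:CoIII, another core subunit, had 728, 684 and 1043, and mt:CoII, which carries the copper centre that accepts electrons from cytochrome c, had 265, 242 and 350.3. These 3 genes held 68.8% of the mitochondrial sum, and each was highest in replicate 3. Per kb they stood at 1314 ± 156 for mt:CoI, 1037 ± 248 for mt:CoIII and 417 ± 83 for mt:CoII (SD, n = 3). The order of the 3 genes was the same on both scales.

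The single mitochondrial members of ATP synthase and complex III lay between mt:CoIII and mt:CoII by mean level. mt:ATPase6 (FBgn0013672), the membrane subunit that forms the proton path beside the rotor, had 421, 389.8 and 598 normalized counts in replicates 1, 2 and 3. mt:Cyt-b (FBgn0013678), the membrane core of complex III, had 334, 317 and 493. In both genes replicate 3 lay above the other libraries, which were close to each other. The span of mt:ATPase6 shares a base with mt:CoIII and overlaps mt:ATPase8, so reads at those junctions cannot be assigned to 1 gene.

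The mitochondrial subunits of complex I, all parts of its proton-pumping membrane arm, were uneven. mt:ND5 had 252, 224 and 391 normalized counts in replicates 1, 2 and 3, and mt:ND4 had 117, 149 and 201. mt:ND1 had 43.7, 38.8 and 72.7, and mt:ND2 43.7, 34.4 and 68.7. These 4 genes were highest in replicate 3, as were the remaining 3 genes, which lay close to the limit of detection. mt:ND6 had 7.72, 1.49 and 15.9 normalized counts, mt:ND3 3.86, 4.48 and 9.25, and mt:ND4L 2.57, 2.99 and 11.9. The lowest of these values, that of mt:ND6 in replicate 2, was a single read. From mt:CoI to mt:ND4L the mitochondrial means spanned 347-fold. Per kb the span was 82.5-fold, from mt:CoI at 1314 to mt:ND6 at 15.9.

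**Figure D2:**
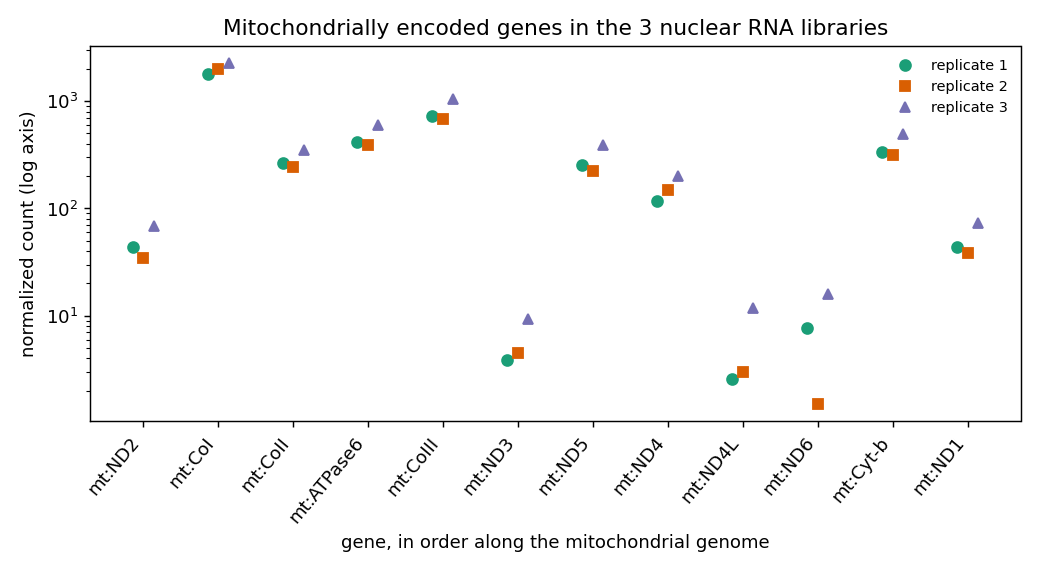
Normalized counts of the 12 mitochondrially encoded genes on a log-scaled axis, in their order along the mitochondrial genome, with 1 symbol for each of the 3 libraries. Replicate 3 is the highest library for all 12 genes, and levels run from 1.49 for mt:ND6 in replicate 2 to 2267 for mt:CoI in replicate 3.

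The mitochondrial members shared their highest library, and the nuclear members did not. Summed over the 12 mitochondrial members, the level was 4009, 4085 and 5522 normalized counts in replicates 1, 2 and 3. Replicate 3 was 1.36 times the mean of the others, and 1.51 times without mt:CoI, an alternative added after the values were seen. The sum over the 68 nuclear members was 6513, 6475 and 6450, a ratio of 0.99. Replicate 3 was the highest library for 12 of 12 mitochondrial members and for 22 of 68 nuclear members, against 37.5% of the 7602 genes in the table. All 12 mitochondrial members kept this order when libraries were scaled to equal totals or by a trimmed mean, where the share of all genes was 27.7% and 34.5%. Replicates of 1 group have no order, and replicate 3 was set against the others with earlier results of these data known. The 12 genes share 1 genome and the same libraries, so they are not separate observations.

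The size of this excess differed between mitochondrial genes. Replicate 3 divided by the mean of replicates 1 and 2 was 1.20 for mt:CoI, 1.38 for mt:CoII, 1.47 for mt:ATPase6, 1.48 for mt:CoIII, 1.51 for mt:ND4 and mt:Cyt-b, and 1.64 for mt:ND5. It was 1.76 for both mt:ND1 and mt:ND2. The 3 genes with the lowest counts had the highest ratios, 2.22 for mt:ND3, 3.44 for mt:ND6 and 4.28 for mt:ND4L, on few reads each. Mitochondrial subunits of complex I summed to 471, 456 and 771 normalized counts, and those of complex IV to 2783, 2923 and 3661, so replicate 3 was 1.66 and 1.28 times the mean of the others in these complexes.

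A further test asked, for every gene of the table averaging at least 10 normalized counts, whether its libraries differed by more than counting error. The chi-square test compared recovered reads with the size factors, with Benjamini-Hochberg adjustment over 6903 genes and a threshold of 0.05. It called 8 of the 77 members tested, against 9.76% of all genes tested, and mt:ND3, mt:ND4L and mt:ND6 were too low to enter. The calls fell on 7 of 9 mitochondrial members and 1 of 68 nuclear members. The mitochondrial calls were mt:CoIII (chi-square test, adjusted p 8.66e-14), mt:CoI (1.72e-08), mt:ND5 (6.97e-08), mt:ATPase6 (1.26e-07), mt:Cyt-b (4.62e-07), mt:ND4 (0.00279) and mt:CoII (0.00437). mt:ND1 and mt:ND2 had larger ratios but fewer reads and did not pass (chi-square test, adjusted p 0.078 and 0.0827).

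The share of genes called grew with depth, so members were set beside genes of like level. Between 10 and 100 normalized counts, 0 of 2 mitochondrial and 0 of 52 nuclear members were called, against 2.39% of all genes, with 2 and 3 at an unadjusted p under 0.05, against 10.9%. Between 100 and 1000, 6 of 6 mitochondrial members and 1 of 16 nuclear members were called, against 10.2%. In this range 6 and 7 were at an unadjusted p under 0.05, and that share was not computed for all genes. mt:CoI, the only member above 1000, was called, against 48.7% of genes at that level. Without replicate 3 the chi-square test called 0 of the 77 members, against 3.52% of the 6903 genes, with 6 members at an unadjusted p under 0.05, against 13.3%. With replicate 2 left out it called 6 members, all mitochondrial, against 4.97% of genes. With replicate 1 left out it called 7 mitochondrial and 4 nuclear members, against 9.87% of genes.

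The single nuclear member called was UQCR-11 (FBgn0260008; 3L, positions 25120709 to 25126171), a small subunit of complex III. It had 584, 535 and 690.1 normalized counts in replicates 1, 2 and 3 (chi-square test, adjusted p 0.00855). Replicate 3 was 1.23 times the mean of the others, the same direction as in the mitochondrial members. At an unadjusted p under 0.05 the chi-square test found 10 of 68 nuclear members, against 20.9% of all genes tested. The call of UQCR-11 was lost without replicate 2, when the chi-square test called 0 nuclear members and 8 of 68 had an unadjusted p under 0.05 (against 15.3% of genes), and also without replicate 3.

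**Figure D3:**
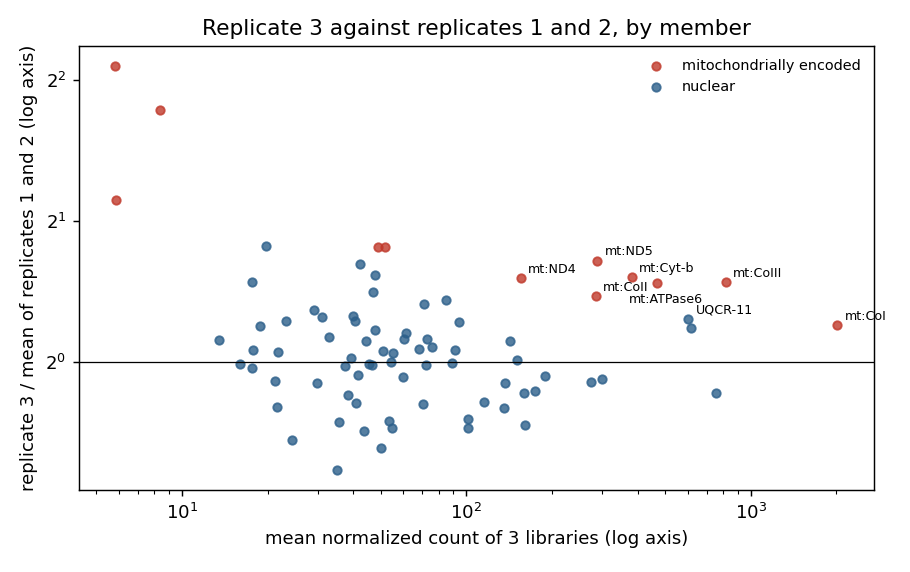
Each point is 1 member, with its mean normalized count over 3 libraries on the horizontal log axis and the ratio of replicate 3 to the mean of replicates 1 and 2 on the vertical log axis, where the line marks a ratio of 1. The 8 named genes passed the chi-square test. Red mitochondrial genes all lie above the line, between 1.20 and 4.28, while blue nuclear genes scatter on both sides of it.

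The summed marker lists of other cell types were set beside this excess of replicate 3. Summed over all genes in the table, replicate 3 was 1.06 times the mean of the others, and 37.5% of genes were highest in it. Replicate 3 over the mean of the others was 1.01 for the glial list, where 1 of 5 genes was highest in replicate 3, with sums of 770 to 821 normalized counts. It was 1.02 for muscle (1 of 3 genes, sums 381 to 401), 1.09 for cone and pigment cells (1 of 3, 215 to 239) and 0.88 for fat body and blood (1 of 4, 1984 to 2342). Of the mean sums, ct made up 189.8 of 226 for cone and pigment cells, and FASN1 1885 of 2168 for fat body and blood. The ratio was 1.18 for ct, 0.51 for Crys and 0.73 for santa-maria. It was 0.85 for FASN1, 0.93 for Yp1, 1.06 for Hml and 1.37 for Lsp2. The testis marker mia had 2.57, 7.47 and 11.9 normalized counts, highest in replicate 3, and the other 5 testis markers had no row. The photoreceptor list stood at 1.01 and the pan-neuronal list at 1.09, with 3 of its 4 genes highest in replicate 3. Genes for cytosolic ribosomal proteins stood at 0.93, with 21 of 81 highest in replicate 3. The part of cytoplasm or of mitochondria carried along with the nuclei was not tested.

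The nuclear members lay slightly below the table in median level, and their genes had no library in common that was highest. Their median was 51.3 ± 4.3 normalized counts, against 57.7 ± 0.7 for all genes in the table (SD, n = 3). The difference was −0.17 ± 0.13 on the log2 scale, lower in 3 of 3 libraries (exact permutation p 0.25). It was −0.46 ± 0.14 when genes averaging under 10 were left out, −0.39 ± 0.01 for the mean of log2 levels, and −0.0041 ± 0.17 for members free of overlap with other genes. Respiratory chain genes are short, with a median span of 1186 bases against 3479 in the table. Per kb the direction turned, to 1.08 ± 0.01 above the table on the log2 scale, with medians of 42.0 ± 0.4 and 19.3 normalized counts per kb (higher in 3 of 3 libraries, exact permutation p 0.25). Of the 68 nuclear members, 29 lay above the table's median by level and 60 above it per kb. By level 0 of them, and per kb 6 of them, were among the top 10% of the table. Of the 12 mitochondrial members 1 was in the top 10% by level and 7 per kb.

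As shares of all reads, nuclear members made up 0.134%, 0.142% and 0.129% of replicates 1, 2 and 3. Their 95% Wilson intervals, which cover counting error only, ran between 0.130% and 0.138%, 0.138% and 0.146%, and 0.126% and 0.133%. The interval of replicate 2 lay above that of replicate 3. Nuclear members covered a 55.7-fold range of means, and 52 of 68 had fewer than 100 normalized counts. The 4 highest, ATPsynC, ATPsynbeta, UQCR-11 and SdhA, held 35.1% of the nuclear sum. A ratio of at least 1.5 between the highest and the lowest library was reached by 20 nuclear members, none of which passed the chi-square test.

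**Figure D4:**
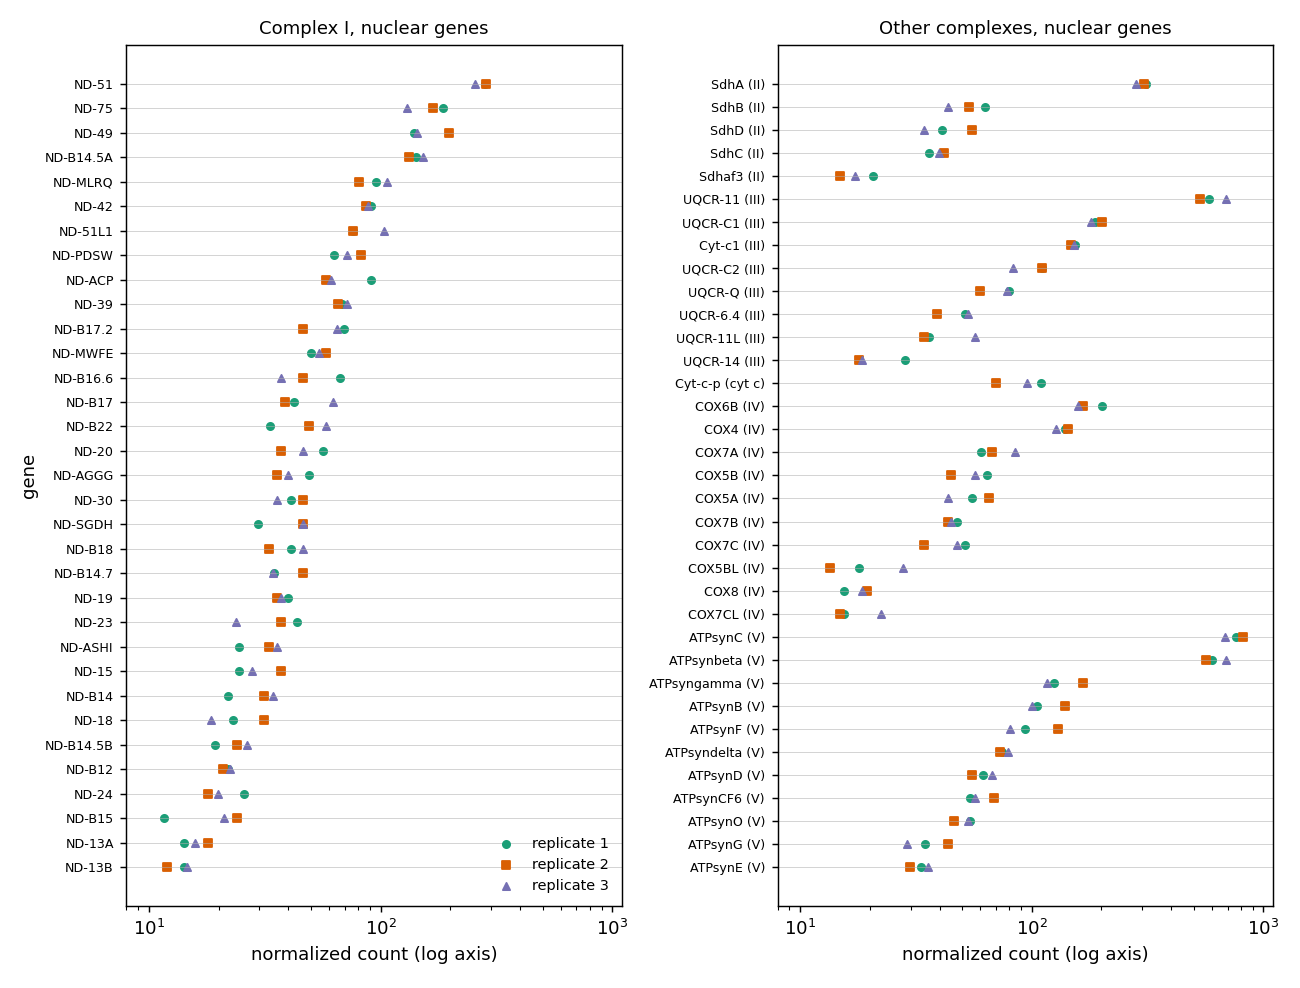
Normalized counts of the 68 nuclear genes in each of 3 libraries on log-scaled axes, complex I at left and the other complexes at right with the complex in brackets, where V is ATP synthase. Genes are sorted by mean within a complex, and the symbols of the 3 libraries change order from gene to gene.

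Among nuclear genes of complex I, which takes electrons from NADH, the 3 highest by normalized count were subunits of the arm that binds NADH and ubiquinone. ND-51, which holds the flavin that accepts electrons from NADH, had 283, 284 and 256 normalized counts in replicates 1, 2 and 3. ND-75, the largest iron-sulfur subunit, had 185, 169 and 129.6, and ND-49, a core subunit at the ubiquinone site, had 139, 197 and 144. No library was the highest for all 3 genes. At the low end ND-13A had 14.1, 17.9 and 15.9, and ND-13B had 14.1, 11.9 and 14.5. These are subunits of the same arm, so low and high levels were found within 1 part of the complex. Per kb the median of the 33 genes was 34.9 ± 0.6 (SD, n = 3), and the ranking differed. ND-B14.5A was highest per kb at 157, followed by ND-51 at 143. ND-B17.2 at 61.9 and ND-PDSW at 61.3 stood above ND-75 at 53.1 and ND-49 at 49.1. ND-15 had the lowest value per kb, 0.72, and its annotated span of 41305 bases overlaps many other genes.

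Complex II, succinate dehydrogenase, also works in the citric acid cycle. SdhA, its flavoprotein, had 311, 305 and 283 normalized counts in replicates 1, 2 and 3, and SdhB, the iron-sulfur subunit, had 63.0, 53.8 and 43.6. The membrane anchors SdhC and SdhD had 36.01, 41.8 and 39.7, and 41.2, 55.3 and 34.4. Sdhaf3, an assembly factor that the symbol rule includes, had 20.6, 14.9 and 17.2. SdhA was thus well above the other 4 in every library, and still highest per kb, at 72.9 ± 3.6 against 29.7 to 40.7 (SD, n = 3). No gene of this complex was highest in replicate 3.

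Complex III passes electrons from ubiquinol to cytochrome c. Below UQCR-11 came UQCR-C1, a core protein, with 188, 200.1 and 181 normalized counts in replicates 1, 2 and 3, and Cyt-c1, the haem subunit that hands electrons to cytochrome c, with 153, 148 and 152. Cyt-c1 varied little, with a ratio of 1.04 between its highest and lowest library. UQCR-14 had 28.3, 17.9 and 18.5, and UQCR-11L had 36.01, 34.4 and 56.8. Both lie inside the span of another gene, UQCR-14 in CG32576 and UQCR-11L in Acsl, whose mean of 1041 normalized counts was far above its own. Cyt-c-p, the gene of cytochrome c itself, had 109, 70.2 and 95.2, lowest in replicate 2.

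The nuclear subunits of complex IV surround the mitochondrial core. COX6B had 201, 166 and 159 normalized counts in replicates 1, 2 and 3, COX4, a regulatory subunit, had 139, 143 and 127, and COX7A had 60.5, 67.2 and 84.6. COX6B overlaps 3112 bases of CG18809, which had a mean of 770 normalized counts, so its own level is uncertain. COX8 had 15.4, 19.4 and 18.5, and COX7CL had 15.4, 14.9 and 22.5. COX4, the highest nuclear gene of the complex per kb at 101 ± 6 (SD, n = 3), stood below each of the 3 mitochondrial genes in every library. The labels do not say whether counting used strand, and 38 of 68 nuclear members overlap another annotated gene. Members free of any overlap had a median of 48.1 normalized counts per kb over 30 genes, against 36.1 for the 38 that overlap.

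ATP synthase held the highest nuclear members. ATPsynC (FBgn0039830; 3R, positions 31216145 to 31219630), the subunit that forms the rotating membrane ring, had 765, 818 and 679 normalized counts in replicates 1, 2 and 3. ATPsynbeta, the catalytic subunit, had 599, 568 and 687, and ATPsyngamma, the central shaft, had 125, 167 and 116. ATPsynC and ATPsyngamma were highest in replicate 2 and ATPsynbeta in replicate 3. ATPsynE and ATPsynG, small membrane subunits, were lowest, with 33.4, 29.9 and 35.7, and 34.7, 43.3 and 29.1. Per kb mt:ATPase6, at 695 ± 166, stood above ATPsynC at 216 ± 20 and ATPsynbeta at 180.0 ± 18.1 (SD, n = 3).

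Between complexes, nuclear subunits of ATP synthase and complex III had the highest medians per kb, 70.8 ± 9.2 and 63.8 ± 6.1 normalized counts (SD, n = 3). Complex IV stood at 42.7 ± 4.7 and complex II at 37.2 ± 6.3, above complex I at 34.9 ± 0.6. ATP synthase exceeded complex I by 0.99 ± 0.18, complex II by 0.92 ± 0.18 and complex IV by 0.72 ± 0.33 on the log2 scale per kb, in 3 of 3 libraries each (exact permutation p 0.25). Against complex III the difference was 0.15 ± 0.31, higher in 2 of 3 libraries (exact permutation p 0.75), within the spread between libraries. Complex II differed from complex I, and complex IV from complex II, by less than the SD of complex II. Limited to members free of overlap, which was decided after the values were seen, complex III stood at 87.9 and ATP synthase at 60.6, so their order turned. It also turned without replicate 2, with ATP synthase at 65.6 and complex III at 67.3 per kb, and without division by length, at 75.7 and 87.0 normalized counts.

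Level rose with span among nuclear members. Across these 68 genes, which share libraries, Spearman's rho between span and mean level was 0.67, against 0.49 across 7551 genes of the table with a length. The 11 members with spans over 3000 bases had a median of 161 normalized counts, against 46.7 for the 57 shorter ones. Division by span therefore lowers the long members most, and ATPsynC, ATPsynbeta, UQCR-11 and SdhA are all among the 11.

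**Figure D5:**
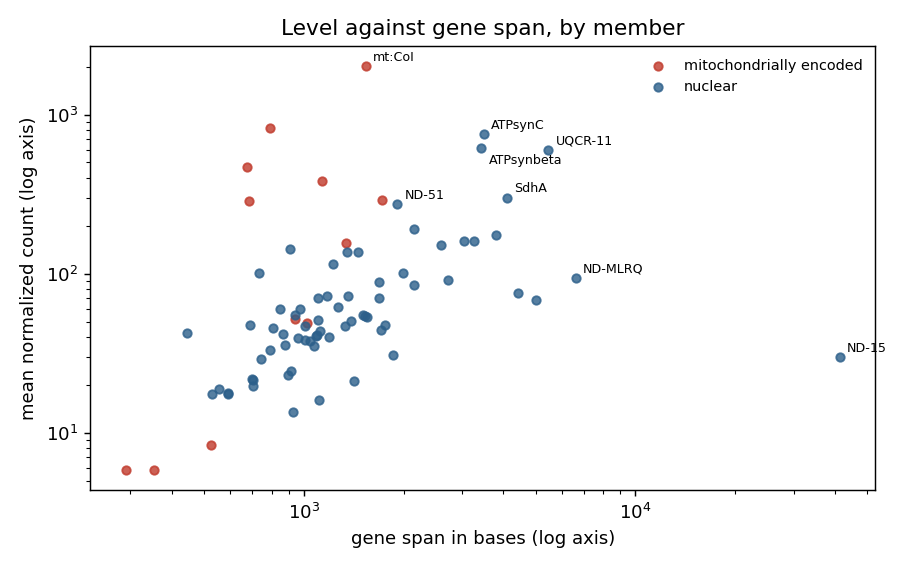
Each point is 1 member, with its annotated span in bases on the horizontal log axis and its mean normalized count over 3 libraries on the vertical log axis. Blue nuclear genes rise with span from 443 bases upward, ND-15 stands at the far right with 41305 bases, and the highest red mitochondrial genes stand above nuclear genes of like span.

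A few members are paralogs of another subunit, many of which are known in flies for testis expression. Of these, 4 had a row beside their partner, and all 4 were lower than it in 3 of 3 libraries. The log2 ratio of paralog to partner was −3.83 ± 0.22 for UQCR-11L over UQCR-11, −1.69 ± 0.33 for ND-51L1 over ND-51, −1.48 ± 0.42 for COX5BL over COX5B and −1.29 ± 0.34 for COX7CL over COX7C (SD, n = 3; exact sign-flip permutation p 0.25 for each). Per kb only ND-51L1 stayed lower in 3 of 3 libraries, at −1.84 ± 0.33 (exact permutation p 0.25). The others stood at −0.23 ± 0.22, −0.42 ± 0.42 and 0.35 ± 0.34 for UQCR-11L, COX5BL and COX7CL, with libraries on both sides of 0. ND-51L1 lies inside Smurf, which had a mean of 620 normalized counts, and COX5BL inside Trmt6, which had 6.09. Cyt-c-d and Cyt-c1L, the partners of Cyt-c-p and Cyt-c1, had no row.

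Related genes under other symbols were read beside the members. Of 6 further subunits 5 had a row, led by blw, the alpha subunit of ATP synthase, with 376, 414 and 362 normalized counts in replicates 1, 2 and 3, and by RFeSP, the Rieske iron-sulfur protein of complex III, with 148, 151 and 139. Neither was highest in replicate 3. Of 14 names listed as assembly factors 8 had a row, and Surf1 and Bcs1 had none. Cox15, Ndufaf7, NdufaF3 and Foxred1 matched no single gene symbol, so no row could be looked up for them. The highest were Cox10 at 52.1 ± 10.6 and Cox11 at 36.1 ± 5.5 (SD, n = 3), which prepare haem and copper for complex IV. Of 12 genes for mitochondrial DNA upkeep and transcription 9 had a row, and PolrMT, the mitochondrial RNA polymerase, led with 116, 122 and 107, followed by mTerf3 at 39.9 ± 1.2. The chi-square test called 0 of 5, 0 of 7 and 0 of 8 tested genes of these lists, against 9.76% of all genes tested. At an unadjusted p under 0.05 it found 0 in each, against 20.9%. Most of these genes averaged under 100 normalized counts. Between 10 and 100 those shares were 2.39% and 10.9%, so 0 calls in lists this short says little. Of the 9 genes for mitochondrial DNA upkeep and transcription, 5 were highest in replicate 3, against 37.5% of the table. Their sum there was 1.05 times the mean of the other libraries, against 1.06 for all genes.

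Genes that feed the chain or exchange its products were read in the same way. All 14 genes listed for the citric acid cycle had a row, led by Ogdh, of the oxoglutarate dehydrogenase complex, with 5111 ± 49 normalized counts and kdn, citrate synthase, with 504 ± 36 (SD, n = 3). This list, used wherever the cycle is named here, also held Pdha and Pdhb, of pyruvate dehydrogenase, and Idh. All 8 listed carriers and channels had a row, led by sesB, the ADP/ATP carrier, with 566 ± 5 and porin, the outer membrane channel, with 420.0 ± 9.5. The chi-square test called 0 of 14 and 0 of 7 tested genes, against 9.76% of all genes tested. At an unadjusted p under 0.05 it found 0 in both lists, against 20.9%. Per kb, the median of the nuclear members differed from that of the citric acid cycle by −0.07 ± 0.07 on the log2 scale (lower in 2 of 3 libraries, exact permutation p 0.5), from glycolysis by 0.35 ± 0.04, from cytosolic ribosomal proteins by −0.36 ± 0.06 and from mitochondrial ribosomal proteins by 1.32 ± 0.13 (3 of 3 libraries each, exact permutation p 0.25). Without division by length the nuclear members lay below glycolysis, at −1.18 ± 0.11, and below the citric acid cycle, at −1.46 ± 0.22 (lower in 3 of 3 libraries each, exact permutation p 0.25), so both comparisons rested on the scale.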

How the data were processed

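The authors deposited 1 table of log2 values for 7602 genes, whose name states normalization with DESeq2. Reads were recovered from these values as whole numbers (100% of values, tolerance 0.001) after undoing the log2 and an added 1. Per the submitters' processing notes, Trimmomatic, STAR, Bowtie2, SAMtools, deepTools, DESeq2, MACS2, HOMER and the builds dm6 and BDGP6 were used in the series. The counting program, annotation release, strandedness, gene filter and whether introns were counted are not given in the sources used here. Gene spans came from RefSeq's annotation of Release 6 plus ISO1 MT, and 7553 identifiers had a symbol.

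Medians were compared within libraries and tested by an exact two-sided sign-flip permutation test. Spread between libraries was tested by a chi-square test on recovered reads, checked on simulated data, which covers counting error only, since reads can include PCR copies. The labels do not say whether libraries came from separate pools of flies. The members and lists were chosen with earlier results of these data known. The text names every mitochondrial member, the 3 highest and 2 lowest nuclear members per complex by mean normalized count, and paralog pairs. Also named are members called with a ratio of at least 1.5. The 2 highest genes are given for the lists of further subunits, assembly factors, mitochondrial gene expression, citric acid cycle and carriers. UQCR-11 as a call, ND-15, members named for their level per kb and overlapping genes were chosen after their values were seen. The gene w, also a transgene marker, was left out of the pigment cell list. Values were computed in Python 3.11.15 with pandas 2.3.3, scipy 1.17.1, numpy 2.4.6 and matplotlib 3.10.9.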

Additional observations from a re-analysis of the deposited data

How the results depend on the processing

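Of 73 alternative values over 12 results, 60 kept their direction and stayed within any limit set, 12 moved and 1 turned. For differences between medians only a change of sign could count, since the exact sign-flip permutation p cannot go below 0.25. Their size was therefore not limited. The nuclear median minus the table median counted as kept at −0.0041 for members free of overlap. It also counted as kept at −0.46 for genes averaging at least 10 normalized counts. The turned value was the nuclear median minus the table median, −0.17 by level and 1.08 per kb, where division by length was chosen after seeing the data. With 1 library left out, the number of the 77 tested members called ran from 0 to 11. It was 0 without replicate 3, against 243 of 6903 genes, and 11 without replicate 1, against 681. It was 11 under equal totals, against 673 of 6903 genes, and 9 under trimmed mean scaling, against 603. The nuclear log2 ratio of replicate 3 to the others, −0.01, was −0.093 under equal totals and −0.034 under trimmed mean scaling. Without division by length the medians of complexes I to IV were 45.0, 44.9, 87.0 and 47.9 normalized counts, and that of ATP synthase 75.7, below complex III. Members free of overlap gave 40.0 for complex I, 87.9 for complex III, 54.8 for complex IV and 60.6 for ATP synthase per kb, chosen after seeing the data, and structural subunits alone gave 48.9 for complex IV. The cause of these shifts was not tested. All 12 mitochondrial rows are protein coding, so restricting them to such genes changed nothing. Not run were division by coding length and the ratio of Cyt-c-p to Cyt-c-d. Depth limits the lowest members, at 1 read in 1 library. No paired analysis was possible because all RNA libraries belong to 1 group.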

Other observations

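The nuclear members were also sorted by chromosome. The 11 members on the X chromosome had a median of 33.6 normalized counts per kb, against 41.7 for the 57 on autosomes, while in the whole table X-linked and autosomal genes stood at 19.7 and 19.5. The X-linked members lay between 14.9 (ND-24, of complex I) and 157 (ND-B14.5A, of complex I). Most of them belong to complex I, whose nuclear median of 34.9 per kb was the lowest of complexes I to IV and ATP synthase. Chromosome and complex were not separated here. Chromosome 4 carried 2 members, ATPsynbeta at 180.0 and ND-49 at 49.1, and its genes in the table had a median of 82.7. These medians are over genes, which are not replicates, and were not tested.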
